A study of Mus musculus with 2 samples.

Results

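The 8 genes described here make, load and carry the peptides that MHC class I molecules show at the cell surface: B2m, H2-D1, H2-K1, Tap1, Tap2, Tapbp, Psmb8 and Psmb9. They were taken by name, through every probe set that the platform annotation pairs with a single one of them, which gave 8 of the 18194 genes and 25 of the 34958 single-gene probe sets on the array. RNA came from lag mutant and from wild-type cerebrum at postnatal day 14 and was hybridised to 1 array per genotype. The lag mutation is recessive and lies in Kif14, a kinesin gene. By the study's methods it arose spontaneously on a mixed background of several inbred strains, C57BL/6N and DBA/2N among them, and carriers were then backcrossed to C57BL/6J. How many mice each RNA sample came from is not stated in the labels or methods, and whether the mice differed in class I haplotype, which can alter how H2 transcripts bind the probes, was not tested. With 1 array per genotype there was no replicate error and no test, so the values below are signals, ratios of lag mutant over wild-type signal, and counts.

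MHC class I molecules consist of a heavy chain, encoded in the mouse by H2-K1 and H2-D1 among others, and the light chain beta-2 microglobulin, encoded by B2m. Peptides are cut in the cytosol by the proteasome, whose standard catalytic subunits can be exchanged for the inducible subunits encoded by Psmb8 and Psmb9, are pumped into the endoplasmic reticulum by the transporter TAP1-TAP2, and are loaded with the help of tapasin, the product of Tapbp. Interferons raise transcription of most of these genes in many cell types. In brain, class I RNA is known from microglia and endothelial cells and at lower levels from neurons, where class I molecules have been linked to the pruning of synapses in development.

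Promoter sequences of 7 of the 8 genes were found through RefSeq's annotation of GRCm38.p6. Tap2, which that annotation places on chromosome 17, had no promoter sequence of the length used. The stretches below are shown because they hold letter matches to known control elements of class I genes. Each lies upstream of the first start listed for its gene, on the strand of that gene. Capitals mark matches, on either strand, to GAAANNGAA or GAANNGAAA (interferon regulatory factor element in its 2 spacings), GGGNNTTCC (NF-kB), CCAAT (Y box) and TGACG (the core of a CRE). The second spacing was added after the promoters had been read. The H2-K1 stretch lies at chr17:34000349-34000468 on the minus strand and the H2-D1 stretch at chr17:35262913-35263055 on the plus strand. Over the first 120 bases, set side by side without gaps, 108 were identical (90%).
H2-K1: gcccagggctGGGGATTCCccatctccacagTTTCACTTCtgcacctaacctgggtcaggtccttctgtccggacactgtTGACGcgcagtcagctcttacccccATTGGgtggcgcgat
H2-D1: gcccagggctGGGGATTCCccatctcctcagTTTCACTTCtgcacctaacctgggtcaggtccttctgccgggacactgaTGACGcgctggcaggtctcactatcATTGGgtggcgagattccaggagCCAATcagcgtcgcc
The 2 heavy chain genes held an NF-kB match, an interferon regulatory factor match, a CRE core and a Y box in the same order, and H2-D1 a second Y box. The B2m stretch, at chr2:122147538-122147648 on the plus strand, held an interferon regulatory factor match, a CRE core and a Y box, also in that order.
B2m: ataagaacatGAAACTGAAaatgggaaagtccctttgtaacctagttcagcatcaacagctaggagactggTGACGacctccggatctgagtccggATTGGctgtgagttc
Tap1 and Psmb9 are transcribed away from each other, with 225 bases between their listed starts. The sequence between them, at chr17:34187331-34187555, is given on the Tap1 strand and held a Y box next to the Psmb9 start and a CRE core.
Tap1 and Psmb9: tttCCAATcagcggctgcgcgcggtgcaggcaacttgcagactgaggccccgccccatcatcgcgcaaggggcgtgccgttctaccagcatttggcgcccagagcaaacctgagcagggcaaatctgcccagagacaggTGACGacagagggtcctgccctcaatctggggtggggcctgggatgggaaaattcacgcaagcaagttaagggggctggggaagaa

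Counted over the 250 bases before the start, an interferon regulatory factor match in either spacing was present in 3 of the 7 genes (B2m, H2-D1 and H2-K1) and in 12.6% of 27025 promoters of the same length. GAAANNGAA alone was present in 1 of the 7 (B2m) and 7.16% of promoters, and GAANNGAAA, the spacing added later, in 2 of the 7 and 6.34%. GGGNNTTCC was present in 2 of the 7 genes and 4.88% of promoters. CCAAT was present in 6 of the 7 genes and 34.5% of promoters, and TGACG in 5 of the 7 and 17.9%. For Tap1 and Psmb9 these are the same sites in the stretch they share, counted for both genes. A match is a description of letters and does not show that a factor binds there.

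On these arrays, Psmb8 and Psmb9 were 1.84-fold and 1.83-fold higher in the lag mutant than in the wild-type, Tap1 1.53-fold, B2m 1.47-fold, and the heavy chains H2-K1 and H2-D1 1.18-fold and 1.15-fold, while Tap2 and Tapbp were 1.07-fold and 1.05-fold lower. Each gene was read from the brightest of its probe sets by mean signal. A probe set counted as measured where its signal exceeded a background level on at least 1 array. That level was the 95th percentile of 87 probe sets for olfactory, vomeronasal, taste and trace amine receptor genes, 44.4 on the lag mutant and 45.6 on the wild-type array. All 8 genes were above it on both arrays. Of the 8, 6 had a higher signal in the lag mutant, against 52% of the 14138 measured genes, and 3 were at least 1.5-fold higher (Psmb8, Psmb9 and Tap1), against 4.41%. None was at least 1.5-fold lower, against 3.76%, and none was at least 2-fold higher, against 0.828%. Their median log2 ratio was 0.40, against 0.01 over all measured genes.

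Psmb8, an inducible catalytic subunit of the proteasome, had a signal of 101.9 in the lag mutant and 55.4 in the wild-type, 1.84-fold higher. Psmb9, the inducible subunit encoded next to Tap1, had 112.8 in the lag mutant and 61.6 in the wild-type, 1.83-fold higher. Tap1, the first chain of the peptide transporter, had 121.8 in the lag mutant and 79.7 in the wild-type, 1.53-fold higher. All 3 genes lay near the background level, most closely on the wild-type array. With Tap2 they belong to the dimmest tertile of measured genes, of which 9.57% were at least 1.5-fold higher, and in which probe sets of the same gene differed with an SD of 0.37 on the log2 scale. The log2 ratios of Psmb8, Psmb9 and Tap1 were 0.88, 0.87 and 0.61, and the SD of log2 ratios across all genes of that tertile was 0.46. Both SDs come from this pair of arrays and hold no variation between mice. Each rested on a single measured probe set: another probe set of Psmb8 and 3 of Tap1 were under background on both arrays. When the level was set at the 99th percentile of the receptor probe sets, 69.2 on the lag mutant and 86.2 on the wild-type array, all 3 wild-type signals fell under it and none of the 8 genes was past 1.5-fold; the log2 ratios were then 0.24 for Psmb8, 0.39 for Psmb9 and 0.50 for Tap1.

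B2m, the light chain shared by class I molecules, was read far above background by a pair of probe sets that gave similar ratios. Its probe sets gave 3290 in the lag mutant and 2237 in the wild-type (1.47-fold), and 3068 in the lag mutant and 2186 in the wild-type (1.40-fold). The log2 ratios were 0.56 and 0.49, where genes of the brightest tertile had an SD of 0.28 between probe sets of a gene and 0.27 across genes, and the brighter one lay at percentile 95.1 of all measured genes.

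**Figure D1:**
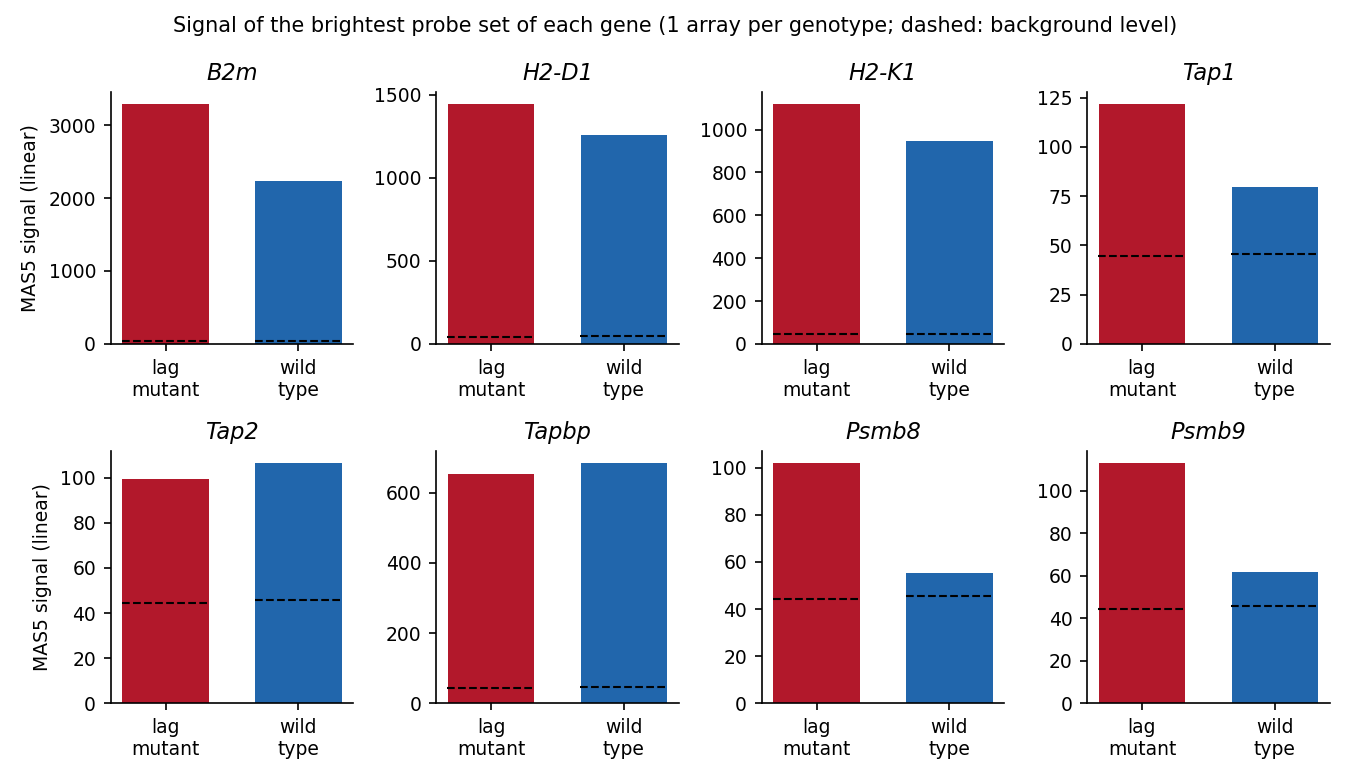
MAS5 signal, on a linear axis that starts at 0 in each panel, of the brightest probe set of each of the 8 genes on the lag mutant array (red, left) and the wild-type array (blue, right), with the background level dashed. Psmb8 and Psmb9 are 1.84-fold and 1.83-fold higher in the lag mutant with wild-type bars near the background level, and the bars of Tap2 and Tapbp are nearly level. Heights may be compared within a panel only, since probe sets differ in how brightly they report.

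The classical heavy chains H2-D1 and H2-K1, which present the peptide, had higher signals in the lag mutant on all 7 of their probe sets that were above background on both arrays, by amounts that varied from probe set to probe set. The other 2 of their 9 measured probe sets were above background in the lag mutant only, so the filter fixed their direction. The brightest for H2-D1 gave 1446 in the lag mutant and 1259 in the wild-type, 1.15-fold. The next gave 1343 in the lag mutant and 1071 in the wild-type, a log2 ratio of 0.33. Dimmer ones gave 374 in the lag mutant and 244 in the wild-type, 1.53-fold, and 126.6 in the lag mutant and 76.0 in the wild-type, 1.66-fold. The ratio was smallest on the brightest of these 4 probe sets. A further one had 51.1 in the lag mutant and lay under background at 7.08 in the wild-type, at least 1.12-fold, and 4 were under background on both arrays.
The brightest probe set for H2-K1 gave 1119 in the lag mutant and 946 in the wild-type, 1.18-fold. The next gave 724 in the lag mutant and 488 in the wild-type, 1.48-fold, and a dim one 98.8 in the lag mutant and 88.1 in the wild-type, 1.12-fold. The last had 60.4 in the lag mutant and 38.7, under background, in the wild-type, a log2 ratio of at least 0.41. The log2 ratios of the brightest probe sets, 0.20 and 0.24, were smaller than the SD of 0.28 between probe sets of a gene in the brightest tertile. That SD describes how probe sets of the same gene differed on this pair of arrays. It is not the error of a single probe set, which 1 array per genotype cannot give. Across the 7 above background on both arrays, 2 were at least 1.5-fold higher and the median log2 ratio was 0.33. Of all measured genes, read from 1 probe set each, 4.41% were at least 1.5-fold higher. These probe sets are not independent measurements: class I genes are close in sequence, and all but 1 of the 9 carry the suffix by which Affymetrix marks probes that can also match other transcripts. The exception was the H2-D1 probe set with a ratio of 1.66.

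**Figure D2:**
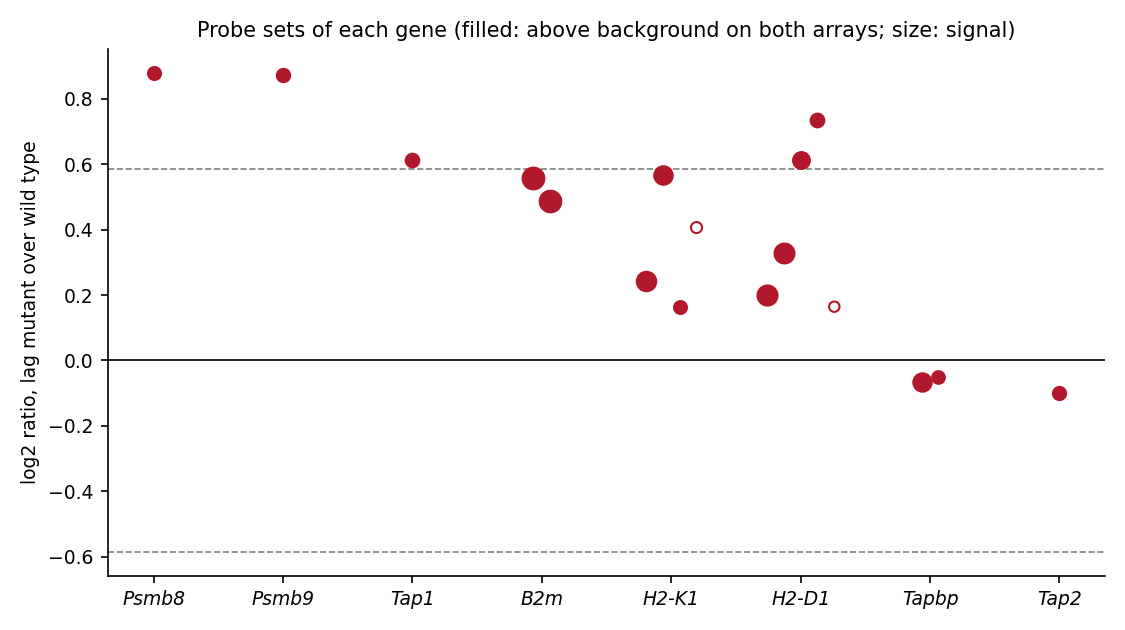
Log2 ratio, lag mutant over wild-type, of the 17 measured probe sets of the 8 genes, which are ordered by the ratio of their brightest probe set. Filled circles were above background on both arrays, open circles on the lag mutant array only (their ratio uses the background level and is a lower bound), circle size grows with signal, and dashed lines mark 1.5-fold. The filled circles of H2-D1 spread from 0.20 to 0.74, and its open circle is a lower bound of 0.16. Both probe sets of Tapbp lie just below 0.

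Probe sets paired with several H2 genes were kept apart. Of 15, 7 were measured, and only 1 of those, paired with H2-K1 and H2-D1 together, holds a gene of the 8. It gave 80.1 in the lag mutant and 75.8 in the wild-type, 1.06-fold. The others went both ways. The probe set shared by H2-Bl and 2 predicted genes had 97.7 in the lag mutant and 45.7 in the wild-type, 2.14-fold higher, and that of H2-Q9 and H2-Q7, non-classical class I genes, 81.9 in the lag mutant and 55.4 in the wild-type, 1.48-fold higher. That of H2-Q6 and H2-Q8 had 77.4 in the lag mutant and 57.4 in the wild-type. The probe set of H2-T9, H2-T22 and H2-T10 had 245 in the lag mutant and 394 in the wild-type, 1.60-fold lower, and that of H2-T23 and a pseudogene had 140.4 in the lag mutant and 145.8 in the wild-type. The signal of H2-T3 and H2-T18, 44.5 in the lag mutant and 11.3 in the wild-type, was at the background level.

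Tap2 and Tapbp did not share the higher signals. Tap2, the partner of Tap1 in the transporter, had 99.3 in the lag mutant and 106.5 in the wild-type, 1.07-fold lower, on its single probe set. Tapbp had 654 in the lag mutant and 684 in the wild-type on one probe set, 1.05-fold lower, and 88.6 in the lag mutant and 91.8 in the wild-type on the other. These log2 ratios, from -0.10 to -0.05, were well inside the spread between probe sets. The log2 ratio of Tap1 exceeded that of Tap2 by 0.71; the 2 chains form the transporter together. On chromosome 17 the measured genes run Psmb9, Tap1, Psmb8, Tap2.

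**Figure D3:**
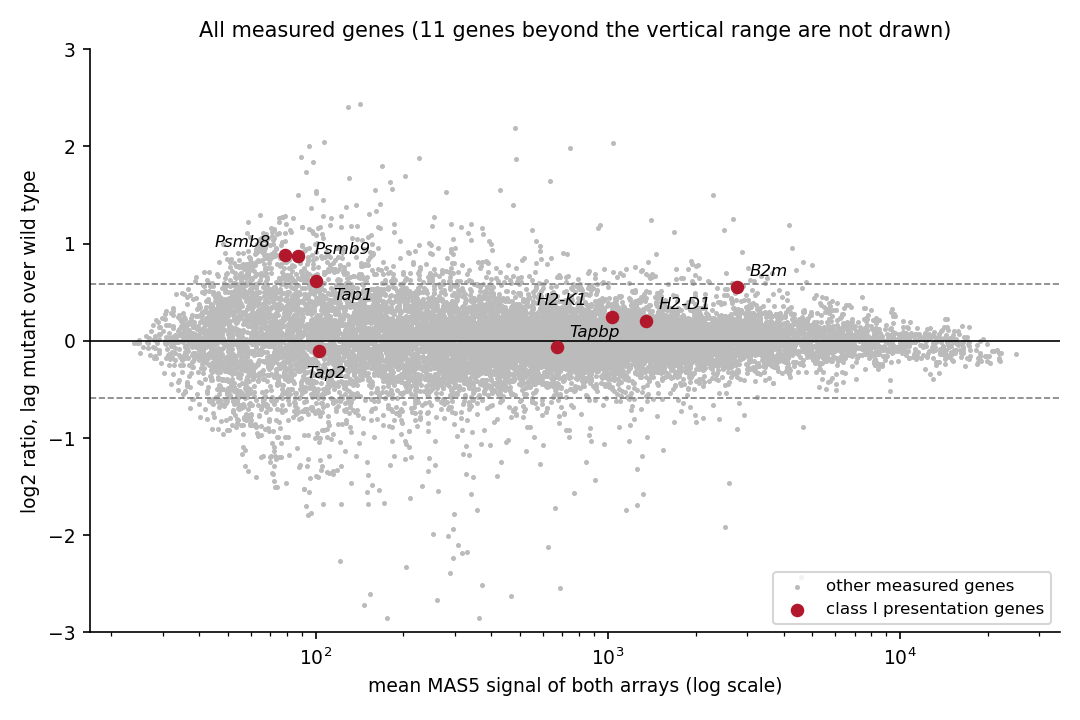
Log2 ratio, lag mutant over wild-type, against mean signal on a log axis for the 14138 measured genes (grey) and the 8 class I presentation genes (red), with dashed lines at 1.5-fold; 11 genes past a log2 ratio of 3 in size are not drawn. Psmb8, Psmb9 and Tap1 lie where the grey cloud is widest, while B2m, at 0.56, lies near the upper edge of the narrower part.

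The exchange partners of the inducible subunits differed little. Psmb5, the standard subunit that Psmb8 replaces, had 4748 in the lag mutant and 4766 in the wild-type, and the log2 ratio of Psmb8 exceeded its own by 0.88. Psmb6, which Psmb9 replaces, had 4452 in the lag mutant and 4100 in the wild-type, a log2 ratio lower than that of Psmb9 by 0.75 (0.12 against 0.87). The third exchange pair differed less: Psmb10, the remaining inducible catalytic subunit, had 1277 in the lag mutant and 1176 in the wild-type, and Psmb7, its standard counterpart, 1478 in the lag mutant and 1639 in the wild-type, a difference in log2 ratio of 0.27. Psme1, a subunit of the interferon-inducible proteasome activator, had 3640 in the lag mutant and 2819 in the wild-type, 1.29-fold higher; the median log2 ratio of Psmb10 and Psme1 was 0.24. None of the 18 genes of the standard proteasome and its other partners, Psmf1 and Pomp among them, was past 1.5-fold, and their median log2 ratio was 0.02. The 3 brightest of them were Psmb4, at 8392 in the lag mutant and 7653 in the wild-type, Psma3, at 7491 in the lag mutant and 7343 in the wild-type, and Psma6, at 7302 in the lag mutant and 7316 in the wild-type.

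Genes of peptide trimming and loading, in the cytosol (the peptidase genes Thop1, Npepps and Lap3) and the endoplasmic reticulum, were mostly a little lower. Of 14 measured genes, 11 had a lower signal in the lag mutant and 3 a higher one, where 52% of all measured genes were higher. None was past 1.5-fold. The median log2 ratio was -0.22, and -0.05 with the mean over all probe sets of each gene. The chaperone Canx had 7524 in the lag mutant and 8818 in the wild-type, Hspa5 5742 in the lag mutant and 7236 in the wild-type, and Calr, which holds the loading complex together with tapasin, 5936 in the lag mutant and 6883 in the wild-type. Erap1, the peptidase that trims class I peptides, had 69.2 in the lag mutant and 87.4 in the wild-type. Tapbpl, a tapasin-related peptide editor, stood apart at 145.0 in the lag mutant and 102.1 in the wild-type, 1.42-fold higher, and its log2 ratio exceeded that of Tapbp by 0.57.

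Among 9 measured heavy chains beyond H2-K1 and H2-D1, 2 were at least 1.5-fold higher, none was at least 1.5-fold lower, and the median log2 ratio was 0.18. Over all measured genes, 4.41% were at least 1.5-fold higher and 3.76% at least 1.5-fold lower. H2-Bl had 465 in the lag mutant and 273 in the wild-type, 1.70-fold higher, and H2-Q2 had 260 in the lag mutant and 160.0 in the wild-type, 1.62-fold higher. Fcgrt, the neonatal Fc receptor, which also pairs with beta-2 microglobulin, had 502 in the lag mutant and 433 in the wild-type, and Hfe, a class I-like regulator of iron uptake, 231 in the lag mutant and 159.9 in the wild-type. H2-M3, which presents formylated peptides, had 149.1 in the lag mutant and 187.9 in the wild-type, 1.26-fold lower.
The class II chain genes H2-Aa, H2-Ab1 and H2-Eb1, whose products present peptides from outside the cell, lay near background. Of 10 measured genes of that pathway, 2 were at least 1.5-fold higher and 1 at least 1.5-fold lower. The shares of all measured genes were 4.41% and 3.76%, and the median log2 ratio of the pathway was 0.24. H2-Eb1 had 94.0 in the lag mutant and 49.7 in the wild-type, 1.89-fold higher, and Ctss, a lysosomal protease also made by microglia, 2530 in the lag mutant and 1484 in the wild-type, 1.70-fold higher. H2-Eb2 had 29.98, under background, in the lag mutant and 68.0 in the wild-type, at least 1.53-fold lower. The brightest others were Lgmn, at 2981 in the lag mutant and 2955 in the wild-type, and Ifi30, at 550.5 in the lag mutant and 423 in the wild-type.

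Of the regulators of class I transcription, Irf7, Irf8, Irf1 and Irf9 had the highest ratios, while Irf3 and Irf2 had log2 ratios of -0.04 and -0.06. Of 16 measured regulators, 2 were at least 1.5-fold higher, against 4.41% of all measured genes. None was lower by as much, against 3.76%, and the median log2 ratio was -0.02. Irf7 had 114.3 in the lag mutant and 68.0 in the wild-type, 1.68-fold higher, and Irf8, also a myeloid lineage factor, 143.4 in the lag mutant and 92.8 in the wild-type, 1.54-fold higher. Irf1, a direct activator of the Tap1 and Psmb9 promoter region, had 267 in the lag mutant and 188.1 in the wild-type, 1.42-fold, and Irf9 241 in the lag mutant and 174.7 in the wild-type, 1.38-fold. The NF-Y, RFX and CREB genes, whose products bind the Y box and its neighbours, differed by less: Creb1 had 1446 in the lag mutant and 1628 in the wild-type, Nfyc 1304 in the lag mutant and 1376 in the wild-type, and Nfyb 994 in the lag mutant and 904 in the wild-type. Nlrc5, the coactivator of class I genes, was under background on both arrays, at 35.4 in the lag mutant and 34.6 in the wild-type.
Interferon gamma (Ifng) and interferon beta (Ifnb1) were also under background on both arrays. For 10 measured genes of interferon receptors and their signalling, the median log2 ratio was 0.14. Of these, 2 were at least 1.5-fold higher, against 4.41% of all measured genes. These 2 were the feedback inhibitors Socs3, at 272 in the lag mutant and 87.7 in the wild-type, and Usp18, at 83.5 in the lag mutant and 51.4 in the wild-type. Jak1, Ptpn2 and Ifngr2, the brightest, lay between 0.98-fold and 1.07-fold. Of 32 measured interferon-induced genes, 13 were at least 1.5-fold higher and 1 was lower by as much, with a median log2 ratio of 0.50. The list includes Psmb10, Psme1, Irf7 and Usp18 but none of the 8. At any size, 25 of the 32 were higher in the lag mutant and 7 lower. The share at least 1.5-fold higher was 4.41% of all measured genes and 9.57% of their dimmest tertile. Rtp4, a chaperone for receptors, had 229.7 in the lag mutant and 91.2 in the wild-type, the GTPase gene Igtp 192.9 in the lag mutant and 84.9 in the wild-type, and the antiviral sensor Oas1a 210.2 in the lag mutant and 98.6 in the wild-type. Lgals3bp, Ifit3, Bst2 and Parp9 were between 1.63-fold and 2.04-fold higher, Oasl2, under background in the wild-type, was at least 2.42-fold higher, and Ifitm3, the brightest after Psme1 and Psmb10, had 1120 in the lag mutant and 697 in the wild-type. Xaf1 had 27.5, under background, in the lag mutant and 214 in the wild-type, at least 4.82-fold lower.

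**Figure D4:**
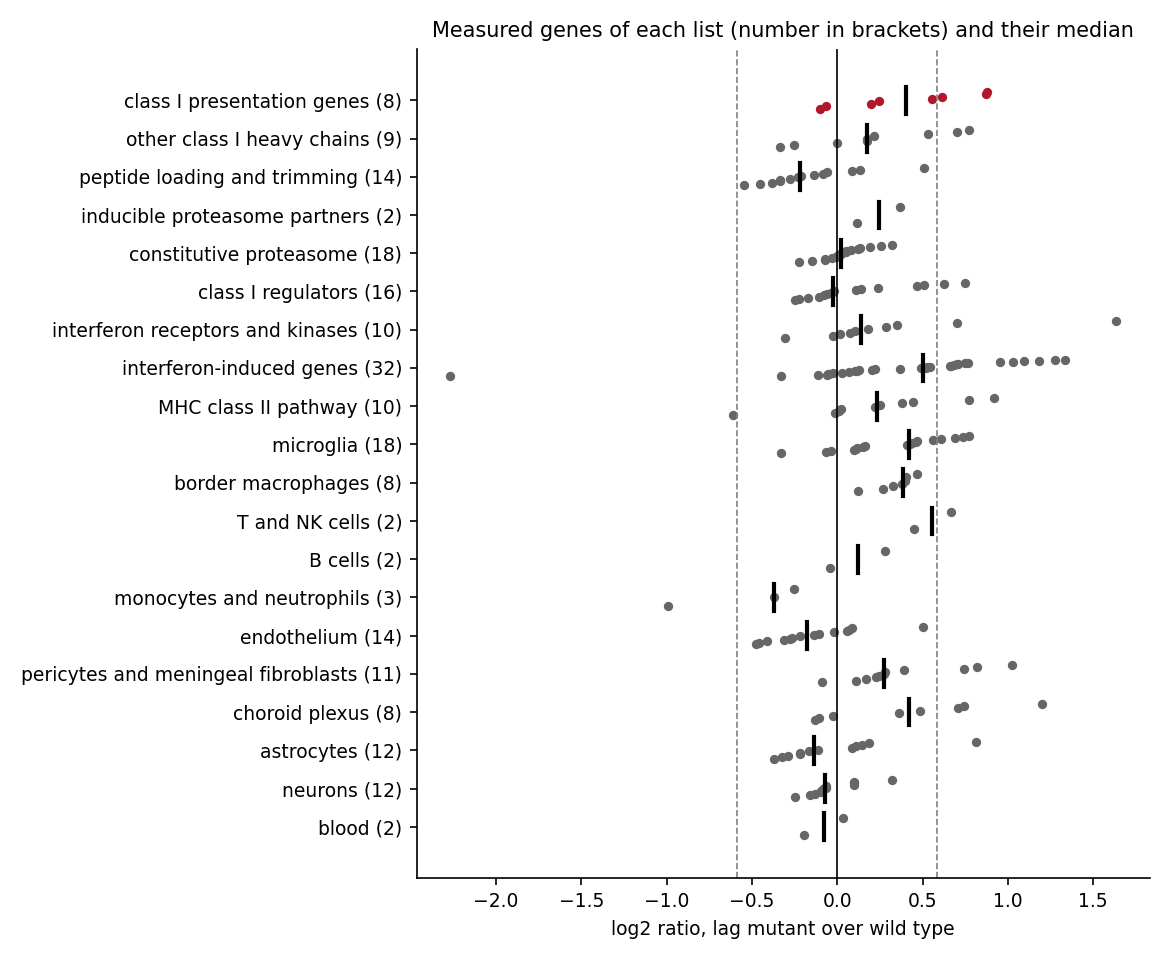
Log2 ratio, lag mutant over wild-type, of the measured genes of 20 lists, 1 point per gene, with the median as a black bar and dashed lines at 1.5-fold. The 8 class I presentation genes (red, median 0.40) lie above the standard proteasome (0.02) and the loading and trimming genes (-0.22); the microglia and border macrophage lists have medians of 0.42 and 0.39. The oligodendrocyte list and a list with 1 measured gene are not drawn.

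Of the 8 genes, all but B2m, on chromosome 2, lie in the major histocompatibility complex on chromosome 17, so the ratios of other genes there were examined. Between Tapbp and H2-D1, the outermost of the 7, 67 genes were measured. Of the 60 that are not among the 8, 39 had a higher signal in the lag mutant, against 7305 of 14071 genes outside the interval. Of the same 60, 3 were at least 1.5-fold higher (5%, against 4.39% of genes outside the interval) and 2 at least 1.5-fold lower. The median log2 ratio of the 60 was 0.07, against 0.01 outside. The 3 were H2-Eb1, the complement gene C2, at 114.7 in the lag mutant and 74.4 in the wild-type, and Ly6g6c, at 76.8 in the lag mutant and 40.2, under background, in the wild-type. The 2 were H2-Eb2 and Col11a2, a cartilage collagen gene, at 76.5 in the lag mutant and 143.1 in the wild-type. The brightest neighbours differed little: Rps18 had 12950 in the lag mutant and 13513 in the wild-type, Ddx39b 3839 in the lag mutant and 4324 in the wild-type, and Atp6v1g2 3086 in the lag mutant and 3076 in the wild-type.

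**Figure D5:**
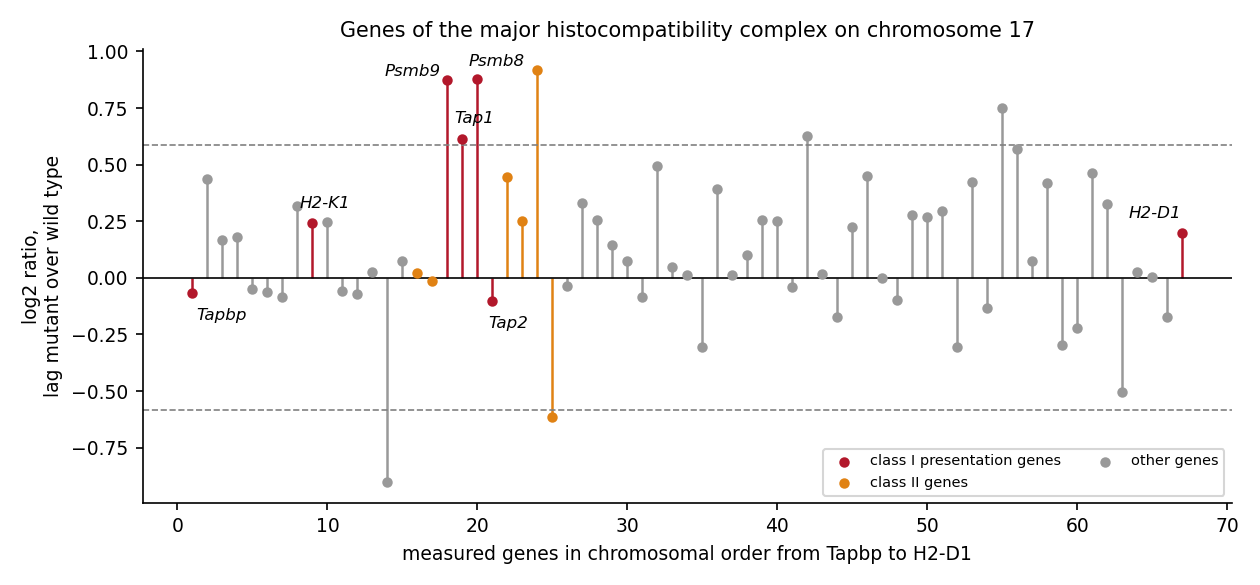
Log2 ratio, lag mutant over wild-type, of the 67 measured genes in their order along chromosome 17 from Tapbp to H2-D1, with dashed lines at 1.5-fold. Psmb9, Tap1 and Psmb8 stand next to each other with ratios from 0.61 to 0.88, followed by Tap2 at -0.10, and most other genes (grey) stay within 1.5-fold.

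The cell types known to carry class I RNA were read from marker lists. In bulk tissue, more cells of a type and more RNA per cell cannot be told apart. Of 18 measured microglia markers, 15 had a higher signal in the lag mutant, 4 of them at least 1.5-fold, with a median log2 ratio of 0.42 and summed signals of 16063 in the lag mutant and 12811 in the wild-type. Csf1r, a receptor that microglia need, had 4511 in the lag mutant and 4170 in the wild-type, and C1qa 1370 in the lag mutant and 1018 in the wild-type, while P2ry12 had 716 in the lag mutant and 750 in the wild-type and Itgam was under background on both arrays. Markers past 1.5-fold were Ctss, Gpr34, at 319 in the lag mutant and 191 in the wild-type, Ptprc, at 227 in the lag mutant and 140.5 in the wild-type, and C1qb, at 1169 in the lag mutant and 766 in the wild-type. All 8 border macrophage markers were higher, within 1.5-fold, with a median of 0.39 and sums of 1907 in the lag mutant and 1517 in the wild-type. Of these, Cd163 had 60.1 in the lag mutant and 44.1, under background, in the wild-type, so the filter fixed its direction. Over all measured genes, 52% were higher and 4.41% at least 1.5-fold higher. The part of these cells in the class I signals was not tested.
Endothelial markers ran the other way, with 10 of 14 lower, none past 1.5-fold, a median of -0.18 and sums of 7957 in the lag mutant and 8684 in the wild-type. Of 13 T and NK cell genes, 11 were under background on both arrays, Cd3e, Cd3d and Cd3g among them; Cd8a had 87.5 in the lag mutant and 64.2 in the wild-type and Prf1 120.7 in the lag mutant and 75.9 in the wild-type. Cd8a was also the only measured gene of 11 for class I receptors, and Pirb was under background on both arrays. The median log2 ratio was 0.28 for pericytes and meningeal fibroblasts (3 of 11 at least 1.5-fold higher: Lum, Dcn and Slc6a13). For choroid plexus it was 0.42 (3 of 8: Folr1, Aqp1 and, under background in the wild-type, Slc4a5). There Ttr, Otx2 and Clic6 were lower, and the summed signal was 22683 in the lag mutant and 24136 in the wild-type. Medians were -0.14 for astrocytes (1 of 12: Gfap) and -0.07 for neurons (0 of 12). They were 0.12 for 2 measured B cell genes, -0.37 for 3 of monocytes and neutrophils (S100a8 at least 1.5-fold lower), and -0.08 for 2 of blood. S100a9 and Ngp were above background in the wild-type only, so the filter fixed their direction, and -0.37 is the raised ratio of Ngp. Pax5 of the B cell genes was also above it in the wild-type only, and Slc4a1 of blood in the lag mutant only.

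Over 45101 probe sets, the median signals were 98.3 in the lag mutant and 104.5 in the wild-type. The mean without the lowest and highest 2% was 500.0 on both arrays. Global scaling makes such a mean equal, so it does not show that the arrays were alike. Kif14 was under background on both arrays, at 0.733 in the lag mutant and 6.85 in the wild-type, and so does not check the labels. Mbp, a major myelin protein gene, had 444 in the lag mutant and 18812 in the wild-type. The signals of all 9 measured oligodendrocyte markers were lower in the lag mutant by 2-fold or more (median log2 ratio -2.85, with Mog and Mobp under background in the lag mutant and their ratios bounds).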

How the data were processed

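Cerebral RNA of lag mutant and wild-type mice at postnatal day 14 was read on 1 Affymetrix mouse array per genotype. The deposited intensities, on a linear scale, came from MAS5, which the authors ran with its defaults and scaled globally; no detection calls were used here, and neither labels nor methods state the scaling target. The platform annotation gave a single gene for 34958 of 45101 probe sets, several genes for 932 and no gene for 9211; symbols of 34754 were updated by gene identifier from RefSeq's GRCm38.p6 table. Signals under the background level were raised to it before log2 ratios were taken. SDs between probe sets of a gene used 6115 genes. The 8 genes and all of the 22 lists were chosen with earlier results of these data known. By rule, all 8 genes were named, and from the other lists and the chromosome 17 neighbours those past 1.5-fold (up to 10 a list) and the 3 brightest. For cell type markers the rule was kept in part, and genes outside it were picked with their values in view. A further promoter motif is not reported here. The code that computes ratios was checked on simulated signals, with changes placed only in genes whose wild-type signal was well above the background level. That check does not cover genes as dim as Psmb8, Psmb9 and Tap1. The ratios themselves have no test. Alternatives changed the probe set, normalization, background level and fold. Python 3.11.15, numpy 2.4.6 and pandas 2.3.3 were used. The number of arrays limits the precision, and p-values cannot be given.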

Additional observations from a re-analysis of the deposited data

How the results depend on the processing

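No paired analysis was possible because there was 1 array for each genotype. Of the 8 genes, 3 were at least 1.5-fold higher. That count was 0 with background set at the 99th percentile and 0 at a threshold of 2-fold. It was 4, with B2m added, at a lower threshold, below 1.5-fold. The share of all measured genes past that lower threshold was not computed, so the 4 cannot be compared with it. The count at 1.5-fold was 3 with the mean over probe sets, quantile normalization, centred ratios, background at the 90th percentile and no background level. With unique probe sets it was also 3, but of 4 measured genes and with H2-D1 beside Tap1 and Psmb9. Psmb8 has no unique probe set, so it was not read there. The median log2 ratio of the 8 genes ranged from 0.24 (99th percentile) to 0.67 (unique probe sets, which leave 4 of the 8). With unique probe sets, H2-D1 had a log2 ratio of 0.74, against 0.20 by its brightest probe set. The ranges were 0.52 to 0.56 for B2m, 0.23 to 0.35 for H2-K1, 0.50 to 0.70 for Tap1, 0.24 to 0.94 for Psmb8 and 0.39 to 0.94 for Psmb9, and Tap2 and Tapbp stayed between -0.11 and -0.01. The lower values of Psmb8 and Psmb9 follow from raising their wild-type signals to the level. Over the 14138 measured genes, 624 (4.41%) were at least 1.5-fold higher and 531 (3.76%) lower. With no background level, 2226 of 18194 (12.2%) were higher and 1689 (9.28%) lower. At the 99th percentile, 359 of 12839 (2.8%) were higher and 392 (3.05%) lower. The share higher was 3.82% with the mean over probe sets, 4.44% with unique probe sets and 5.45% with quantile normalization. It was 4.19% with centred ratios and 5.63% at the 90th percentile. The oligodendrocyte median was -3.84 with no background level and -3.28 with unique probe sets. Medians of lists with few measured genes changed sign: that of blood was 0.04 with unique probe sets, 0.15 at the 90th percentile and 0.54 with no background level, and that of B cells -0.12 with unique probe sets. The median of the class I regulators, -0.02, was 0.04 with unique probe sets and 0.05 with quantile normalization. That of the loading and trimming genes, -0.22, was -0.05 with the mean over probe sets. That of the class II genes, 0.24, was 0.02 with unique probe sets and at the 99th percentile. For genes as dim as Psmb8, Psmb9 and Tap1, the distance from background limits what a ratio can show.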
